A study of Taeniopygia guttata with 23 samples.

Results

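H3K4me3, the trimethyl mark on lysine 4 of histone H3, was mapped in the auditory forebrain of day 67 male zebra finches (Taeniopygia guttata) reared with or without an adult male. The 4 H3K4me3 libraries of that age among the 23 samples of the series were chosen by their titles, 2 labelled Tutored and 2 labelled Isolate. Tutored males were housed with 1 adult male and 1 adult female from day 21 after hatching, and Isolate males with 2 adult females from the same day. Both groups are labelled day 67, while the series' design text gives day 65. An H3K4me3 library of day 32 males kept in their home aviary (P32, 1 sample) was used for reference. All libraries came from dissected forebrain tissue, a mixture of neurons, glia and blood vessel cells, so a difference in the share of a cell type and a difference in the mark per cell cannot be told apart. The labels do not say how many birds went into a library, or whether replicates were separate birds, so spread between replicates may be technical.

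H3K4me3 is written mainly by the SET1 and MLL methyltransferase complexes and marks the nucleosomes around the start sites of active and poised genes. RNA polymerase II (Pol II) is often found at the active ones, and in the poised ones the mark lies beside H3K27me3, which is left by Polycomb repressors. Long H3K4me3 domains are known in mammals from genes that define a cell type. In young male songbirds the auditory forebrain takes part in storing the memory of the tutor's song, and the comparison asks whether H3K4me3 differs after that experience is withheld.

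Each library is given as a list of islands, which are intervals called as enriched in 200 bp windows, with the number of reads in each. The lists held 17686 islands in Tutored replicate 1, 17061 in Isolate replicate 1, 18658 in Tutored replicate 2 and 19502 in Isolate replicate 2. Reads in islands came to 4291767 and 4286003 in replicate 1 (Tutored, Isolate) and to 10840161 and 11303863 in replicate 2. The replicates thus stood further apart than the groups, with more reads in islands in replicate 2 in both groups. The names of the files of replicate 1 carry the letter of the other group, I for the library titled Tutored and T for the library titled Isolate. The titles were followed, and results are also given with these libraries exchanged. The islands had a median length of 2200 bp in both replicate 1 libraries and 1600 bp in both replicate 2 libraries. Island lengths of the other marks were not set beside these, so length does not check the label. Heterochromatin islands (H3K9me3) of the day 67 libraries touched 3.97% to 5.69% of the shared regions defined next, and Pol II islands 23.4% to 65.6%. For the P32 libraries of these marks the shares were 29.6% and 25.9%, so the low overlap with H3K9me3 holds at day 67 alone. No source used here names the build behind the islands. Positions are therefore printed as deposited, counted from 1, and no gene names or sequences are attached to the regions.

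Most H3K4me3 regions were called in both groups. Islands of the 4 libraries that overlapped or touched were merged into 20267 regions, of which 14349 (70.8%) had an island in all 4 libraries and are called shared. Within replicate 1, 86.8% of the 17531 regions called in either library were called in both, and within replicate 2, 89.5% of 18768. The regions that differed in presence were weak. In replicate 1, 963 regions were called in Isolate alone, with a median of 27 reads, and 1352 in Tutored alone, with a median of 30, against 180 reads in both libraries for regions that both called. In replicate 2, 1358 were called in Isolate alone with a median of 55 reads and 610 in Tutored alone with a median of 50, against 398 (Isolate) and 380 (Tutored) reads where both called. Which group had more of its own regions thus changed with the replicate.

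Most of these differences in presence did not recur in the other replicate. Of the 963 regions of Isolate alone in replicate 1, 94 were again in Isolate alone in replicate 2, 35 were in Tutored alone, 466 were in both and 368 in neither. Of the 1352 of Tutored alone, 58 were again in Tutored alone, 131 in Isolate alone, 600 in both and 563 in neither. A region of Tutored alone in replicate 1 was therefore found more often on the other side in replicate 2 than on the same side, and Isolate replicate 2 was also the longest of the 4 lists. The 94 Isolate-only and 58 Tutored-only regions make up 0.464% and 0.286% of all merged regions. The balance turned under other rules for islands. With the 17061 islands of most reads per base pair from each list the counts were 79 and 98, and with islands of at least 1000 bp they were 119 and 124. With reads set to 0 where a library had no island, edgeR called 0 of the 17985 regions found in at least 2 libraries, with 26 at an unadjusted p under 0.05. The lists do not give the reads outside islands, so that value of 0 is a stand-in. The edgeR fit here did not take the replicate number as a block. Fits of that kind called no changed region in simulated data (below), so the lack of calls carries no weight.

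**Figure D1:**
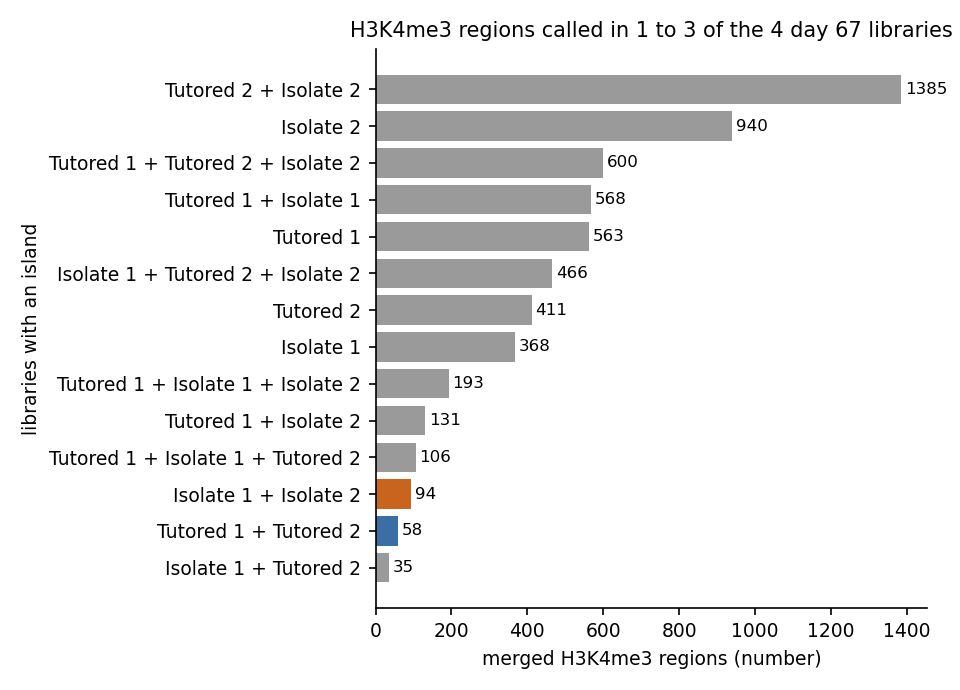
Number of merged H3K4me3 regions (x axis) by the set of day 67 libraries with an island (y axis), for regions called in 1 to 3 of the 4 libraries. The bar of both Isolate libraries alone (94, orange) and that of both Tutored libraries alone (58, blue) are among the shortest, and both replicate 2 libraries alone give the longest (1385).

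The Isolate-only and Tutored-only regions were alike in length and reads. Both had a median length of 1200 bp, with quartiles of 1000 to 1750 bp in the first and 800 to 1750 bp in the second. The longest measured 3000 and 3600 bp. Median reads were 29 and 63.5 in replicates 1 and 2 of Isolate, and 28.5 and 52 in those of Tutored. The fewest reads of any island were 13 in both replicate 1 lists, 22 in Isolate replicate 2 and 23 in Tutored replicate 2. At least 50 reads in both libraries were held by 5 Isolate-only and 3 Tutored-only regions. The Isolate-only and Tutored-only regions were spread over 29 and 27 chromosomes. The highest Isolate-only count was 11, on chromosome 1, and the highest Tutored-only count was 5, on chromosomes 1 and 4. Chromosome 1 also has many merged regions (1634). Its Isolate-only rate was 6.73 per 1000 merged regions, with other chromosomes higher (12.4 on chromosome 23) and lower (2.80 on chromosome 2).

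The regions named here have the highest count in the weaker of the libraries that call them. The first Isolate-only region, on chromosome 11 at 19616001 to 19618400, held 68 reads in replicate 1 over 2400 bp and 65 in replicate 2 over 800 bp. It had no Pol II, H3K27me3 or H3K9me3 island at day 67. The second, on chromosome 1 at 117779201 to 117782200, held 64 and 119 reads. The third, on chromosome 3 at 29452001 to 29454200, held 62 and 130 reads. The fourth, on chromosome 27 at 1043401 to 1046000, held 61 and 104 reads. These last regions all carried Pol II in both replicate 1 libraries, Tutored included, and the one on chromosome 3 also in Isolate replicate 2 and with an H3K4me3 island in P32 (60 reads).

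Among Tutored-only regions, the one on chromosome 4 at 68869601 to 68871800 held 56 and 72 reads. The next, on chromosome 12 at 4809201 to 4811000, held 55 and 125 reads. Both carried Pol II in both Isolate libraries and in Tutored replicate 1, so Pol II was called there in the group without an H3K4me3 island. The region on chromosome 6 at 15270601 to 15273000 held 52 and 157 reads, with Pol II in both Tutored libraries and in Isolate replicate 1. The region on chromosome 1A at 2523201 to 2525400 held 49 and 66 reads and carried H3K27me3 in all 4 day 67 libraries and P32, H3K9me3 in Isolate replicate 1 and Tutored replicate 2, and no Pol II. None of these Tutored-only regions had an H3K4me3 island in P32.

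The other marks lay on both sets of regions in both groups. Of the 94 Isolate-only regions, Pol II islands lay on 27 in Isolate and 26 in Tutored in replicate 1, and on 28 and 15 in replicate 2. Of the 58 Tutored-only regions, they lay on 14 in Isolate and 14 in Tutored in replicate 1, and on 15 and 7 in replicate 2. The lower numbers of Tutored replicate 2 appeared in both sets, and its Pol II islands also touched the fewest of the shared regions (23.4%, against 49.1% for Isolate replicate 2). In replicate 1, Pol II islands touched 65.6% of shared regions in Isolate and 56.9% in Tutored. A Pol II island in each Isolate library with none in Tutored was found at 2 Isolate-only and 1 Tutored-only regions, and the reverse at 0 of either. H3K27me3 islands lay in all 4 day 67 libraries on 28 of the Isolate-only and 18 of the Tutored-only regions. Over shared regions that share was 15.6%, and 25.6% over those with a mean under 50 reads, which are nearer in depth. H3K9me3 islands of the day 67 libraries lay on 14.9% to 18.1% of the Isolate-only and 5.17% to 10.3% of the Tutored-only regions. Tutored and Isolate libraries were alike in this within each set. Over shared regions, which hold more reads, the day 67 libraries gave 3.97% to 5.69%. The P32 library of H3K9me3 had islands on 27.7% and 29.3%, and on 29.6% of shared regions. No island of Pol II, H3K27me3 or H3K9me3 was called in any day 67 library on 33 Isolate-only and 22 Tutored-only regions. How often this holds for other regions was not computed, so these counts have no background here.

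The day 32 library, which played no part in choosing these regions, called similar shares of both. Isolate-only regions had an island in P32 in 35 of 94 cases (37.2%, exact 95% binomial interval 27.5% to 47.8%), and Tutored-only regions in 22 of 58 (37.9%, 25.5% to 51.6%). These intervals cover counting error alone and overlap almost entirely. Of the regions called in both replicate 1 libraries alone, 48.6% (44.4% to 52.8%) had an island in P32, of those in both replicate 2 libraries alone 29.6% (27.2% to 32.1%), and of shared regions 94.7% (94.4% to 95.1%). With the replicate 1 libraries exchanged, 31.3% of the 131 Isolate-only and 37.1% of the 35 Tutored-only regions were called at day 32.

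**Figure D2:**
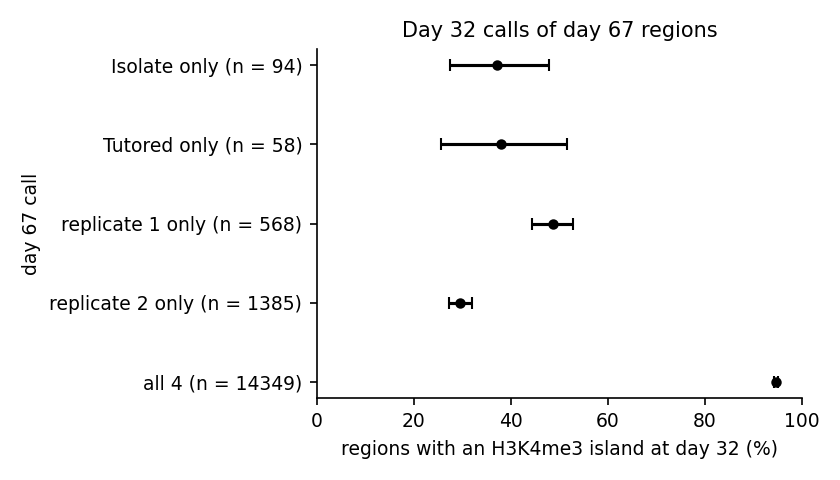
Share of day 67 H3K4me3 regions with an island in the single P32 library (x axis, %) by the libraries that call the region (y axis), with exact 95% binomial intervals. The points for Isolate only (37.2%) and Tutored only (37.9%) lie side by side, and shared regions lie at 94.7%.

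In the shared regions the length covered by islands was alike in the groups, with small shifts that went opposite ways in the replicates. In replicate 1, 20.1% of the 14349 regions had exactly the same covered length in Isolate and Tutored, 38.5% were longer and 41.4% shorter in Isolate. In replicate 2, 30.1% were equal, 37.9% longer and 32.0% shorter. The difference was at most 400 bp, which is 2 windows, in 61.6% of regions in replicate 1 and 76.3% in replicate 2. Both ends of the region were the same window in 15.9% and 27.2%. Mean covered length was 3187 bp in Tutored and 3138 bp in Isolate in replicate 1, and 2492 and 2542 bp in replicate 2. The replicates differed far more, since replicate 2 was shorter than replicate 1 in 69.0% of regions in Tutored and 65.6% in Isolate.

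**Figure D3:**
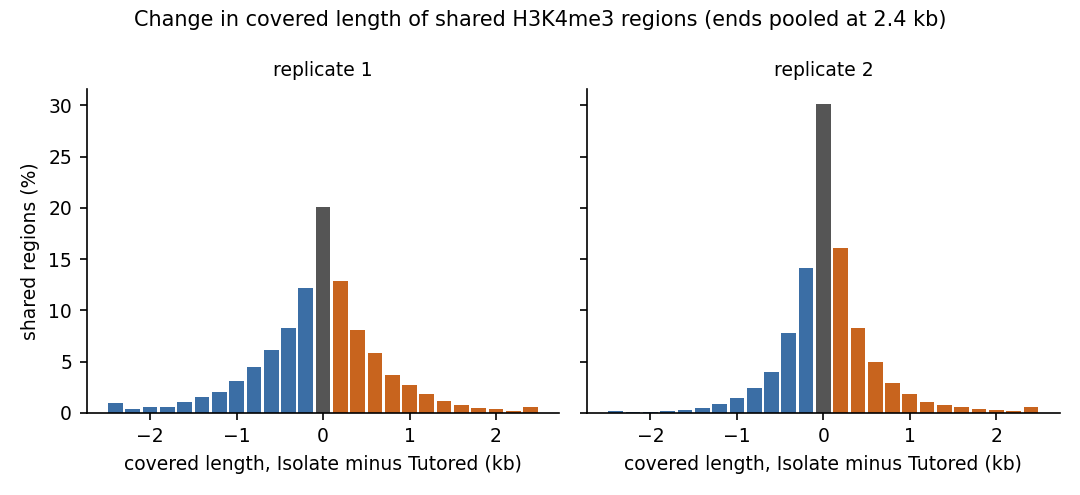
Covered length in Isolate minus Tutored (x axis, kb, in steps of 1 window, with the outermost bars holding all larger differences) as a share of the 14349 shared regions (y axis, %), for replicate 1 (left) and replicate 2 (right). The middle bars, regions of equal length, hold 20.1% and 30.1%, and the weight of the sides turns from shorter in Isolate (blue) in replicate 1 to longer in Isolate (orange) in replicate 2.

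No region passed a test on length. With limma on the log2 covered length of all 4 libraries, 0 of 14349 regions (0%) reached a Benjamini-Hochberg adjusted p of 0.05, and 98 had an unadjusted p under 0.05. With the replicate number as a block limma again called 0, with 1149 at an unadjusted p under 0.05. That number was 1143 when the replicate 1 libraries were exchanged, so it is not particular to the grouping by titles. Within replicate 1, 994 regions (6.93%) were at least 1.5-fold longer in Isolate and 1164 (8.11%) at least 1.5-fold shorter, and within replicate 2 these were 922 (6.43%) and 765 (5.33%). In both replicates at once, 110 regions (0.767%) were longer and 89 (0.62%) were shorter by that much, and 221 were longer in one replicate and shorter in the other. Regions that went the same way were thus no more frequent than those that went opposite ways. Of the 14349, 31 were split into several islands in both Isolate libraries and a single island in both Tutored libraries, and 25 the reverse.

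Of the shared regions of at least 2 kb, 4 are named as longer in Isolate in both replicates. On chromosome 9 at 13466201 to 13470200, islands covered 1200 bp in Tutored and 3400 bp in Isolate in replicate 1, and 1400 and 4000 bp in replicate 2. Reads there were 38 and 69 in replicate 1 and 81 and 258 in replicate 2, and P32 held 32 reads over 1800 bp. On chromosome 3 at 78980201 to 78983000, 1200 and 2800 bp were covered in replicate 1 and 1000 and 2400 bp in replicate 2. On chromosome 4 at 21651201 to 21654200, 800 and 1800 bp were covered in replicate 1 and 1200 and 2800 bp in replicate 2. On chromosome 14 at 1349601 to 1351600, 800 and 2000 bp were covered in replicate 1 and 400 and 800 bp in replicate 2. All 4 carried H3K27me3 in every day 67 library and in P32, and Pol II in none, a state found at 5.90% of all shared regions. These regions have few reads, and the state was more frequent in their classes. It was found at 10.7% of shared regions with a mean of 100 to 200 reads and 18.6% of those under 50. Of the 846 regions in that state, 13 were at least 1.5-fold longer and 11 shorter in both replicates. Those on chromosomes 9 and 14 also carried H3K9me3 in each of these libraries. The last was 1 of 5 regions that tied at its place, taken by position.

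Where Isolate was shorter, the named regions did not share a mark. On chromosome 9 at 15029201 to 15031600, 1000 bp in Tutored and 400 bp in Isolate were covered in replicate 1, and 2400 and 800 bp in replicate 2, with no other mark in any library. On chromosome 24 at 5149001 to 5152600, 2800 and 1000 bp were covered in replicate 1 and 2000 and 1000 bp in replicate 2, with Pol II in both Isolate libraries and in Tutored replicate 1 and H3K27me3 in both Isolate libraries alone at day 67. On chromosome 4 at 38388601 to 38391000, 2400 and 1200 bp were covered in both replicates, with no other mark and no H3K4me3 island in P32. On chromosome 7 at 21590201 to 21592400, 2000 and 800 bp were covered in replicate 1 and 1600 and 800 bp in replicate 2, while reads differed less, at 204 and 187 and at 646 and 487. Pol II was called there in both replicate 1 libraries alone, with no other mark. None of these regions passed limma, whose adjusted p was 1 for each (0.595 to 0.635 with the replicate block).

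Inside shared regions the log2 differences in reads had a smaller spread than those in covered length. After scaling to library size (CPM with TMM factors), Isolate minus Tutored log2 differences had a median of 0.00 and an SD of 0.32 in replicate 1, and a median of -0.01 and an SD of 0.26 in replicate 2. For the log2 ratio of covered length the SD was 0.42 and 0.36. Length moves in steps of 200 bp, so these spreads are not of like measures. The difference between replicates of a group had an SD of 0.66 in Tutored and 0.61 in Isolate, so the groups differed less than the replicates did. The counts of the replicate 1 pair varied 2.98 times as much as sampling of independent reads gives (mean chi-square per region), and those of the replicate 2 pair 4.19 times. This ratio grows with the number of reads, of which replicate 2 has more, so it does not rank the pairs. Duplicate reads are not marked in the lists and their part in the spread of counts was not tested. No pair of libraries was counted as 1 sample. A change in length went with a change in reads across regions (Pearson's r = 0.57 in both replicates, 14349 regions of the same libraries). Both are summed over the same islands, and a longer island takes in more reads, so this link is largely built in.

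edgeR's quasi-likelihood test called 0 of 14349 (0%) at 0.05 after Benjamini-Hochberg adjustment, with 9 at an unadjusted p under 0.05, and DESeq2 called 0. The fit with the replicate number as a block also called 0, with 510 at an unadjusted p under 0.05 and a smallest adjusted p of 0.516. Without the block the spread includes the difference between replicates. Data were simulated with that difference and with a common dispersion (reads) or SD (length) for all regions. The planted changes were 2-fold or larger, and smaller ones were not simulated. On these data, edgeR and limma called no changed region without the block, whereas with the block they called most. Their 0 calls without the block therefore carry no weight of their own. The counts with the block are the more telling, for changes of the sizes simulated. The common value may be too small for weak regions, so what the blocked fits can find there is not known. Within replicate 1, 78 regions (0.544%) were over 2-fold higher and 125 (0.871%) over 2-fold lower in Isolate. Within replicate 2 these were 60 (0.418%) and 56 (0.39%). Higher by over 2-fold in both replicates were 0 regions (0%), lower was 1 (0.00697%), and 5 went opposite ways. At 1.5-fold the counts were 28 higher, 30 lower and 63 opposite.

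Regions past 2-fold in a replicate had medians near 0 in the other. The 78 regions higher in replicate 1 had a median log2 difference of 1.16 there and 0.00 in replicate 2, where 40 of them were above 0. The 125 lower in replicate 1 had -1.19 there and 0.05 in replicate 2, where 52 were below 0. The 60 higher in replicate 2 had -0.15 in replicate 1, where 26 were above 0. The 56 lower in replicate 2 had -0.12, where 35 (62.5%) were below 0, the most of the 4 sets. The median of all shared regions in replicate 1 was -0.00. They were weaker than usual, with medians of 76.4 to 108 reads (mean of the 4 libraries) against 353 for all shared regions.

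**Figure D4:**
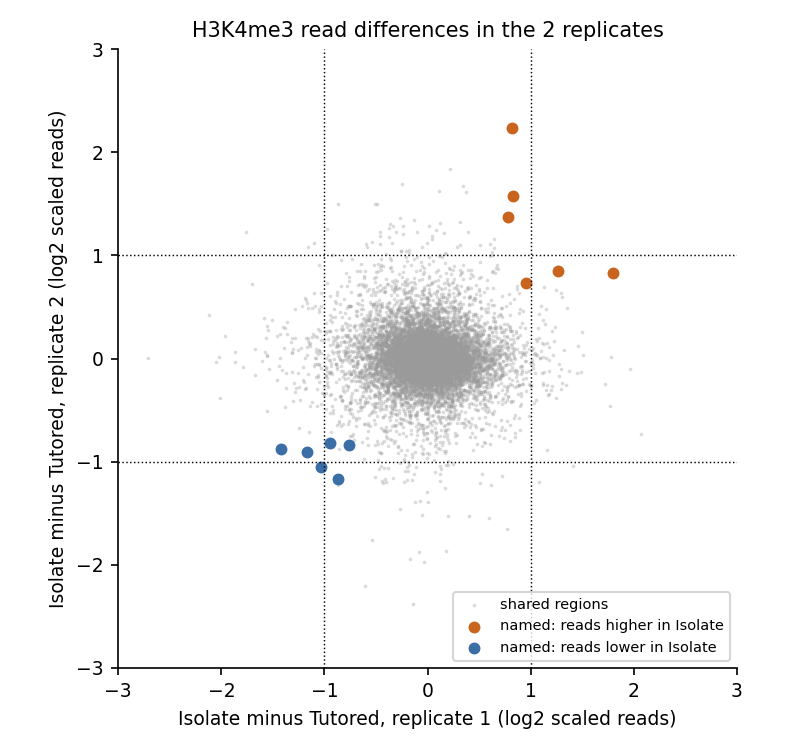
Isolate minus Tutored log2 difference in scaled H3K4me3 reads in replicate 1 (x axis) and replicate 2 (y axis) for the 14349 shared regions (grey), with the 12 named regions in colour and dotted lines at 2-fold. The cloud has no tilt (Pearson's r = -0.03 across regions), with 1 region beyond both lines in the lower left corner and 0 in the upper right.

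The region past 2-fold in both replicates lay on chromosome 3 at 95091401 to 95092200. It held 46 reads in Tutored and 22 in Isolate in replicate 1, and 119 and 58 in replicate 2. Both Isolate libraries lay below both Tutored libraries after scaling, at 5.54 and 5.48 CPM against 11.4 and 11.4. Its log2 difference was -1.08 (SE 0.34, edgeR adjusted p = 1.00). It carried H3K9me3 in all 4 day 67 libraries and in P32, no Pol II and no H3K27me3, and P32 had no H3K4me3 island there.

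The other regions named as lower in Isolate are given with the reads of Tutored and Isolate in each replicate. On chromosome 21 at 3311201 to 3312800 these were 93 and 41 in replicate 1 and 211 and 116 in replicate 2. On chromosome 1 at 74581801 to 74584600 they were 71 and 26, then 315 and 177, and P32 had no island. Both regions carried H3K27me3 in all 4 day 67 libraries and no Pol II. A further region on chromosome 1 at 58734401 to 58737200 held 124 and 68, then 395 and 181, with 301 reads in P32 and no other mark. On the unplaced group LGE22 at 35801 to 38200 the reads were 68 and 35, then 134 and 78, with H3K27me3 in all 4 libraries. On chromosome 4A at 15491601 to 15493200 they were 48 and 28, then 159 and 91, with no other mark. Reads were summed over each library's own islands, so a difference in covered length enters these counts. In all 6, Isolate was covered over the same length as Tutored or less, in each replicate. On chromosome 4A islands covered 1600 bp in Tutored and 600 bp in Isolate in replicate 1, then 800 and 600 bp. On chromosome 21 these were 1600 and 600 bp, then 600 bp in both, and on LGE22 2400 and 1000 bp, then 1600 and 1000 bp. None of the 6 carried Pol II in any day 67 library, as was the case for 63.5% of shared regions with a mean of 50 to 100 reads and 49.3% of those with 100 to 200, the classes these regions fall in.

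Of the regions named as higher in Isolate, the one with the largest difference lay on chromosome 2 at 156117001 to 156118200. It held 21 reads in Tutored and 38 in Isolate in replicate 1, and 73 and 369 in replicate 2, so the size of its difference (log2 1.83, SE 0.69) came mostly from Isolate replicate 2. It carried no other mark. On chromosome 2 at 11515801 to 11516800 the reads were 25 and 62, then 113 and 214, with Pol II in both replicate 1 libraries. On chromosome 9 at 4950801 to 4954400 they were 27 and 97, then 92 and 173, with Pol II in all 4 day 67 libraries and H3K27me3 in Isolate replicate 1 and Tutored replicate 2. Islands there covered 800 bp in Tutored and 3600 bp in Isolate in replicate 1, and 1000 bp in both in replicate 2. Covered length thus enters its replicate 1 difference. The region on chromosome 9 that was also named for its length, at 13466201, stands among these as well, with log2 differences of 0.83 and 1.58. On chromosome 6 at 3119801 to 3120600 the reads were 36 and 63, then 41 and 115, with Pol II in all 4 libraries. On chromosome 7 at 5271001 to 5271800 they were 20 and 40, then 64 and 113, with no other mark.

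In all 12 named regions the scaled reads of the groups did not overlap. They were chosen for differing the same way in both replicates, so this is a description of the choice. Over all shared regions, both Isolate libraries lay above both Tutored libraries in 5.85% and below them in 6.22%. None of the 12 was called by edgeR, with adjusted p of 1.00 in each case and 0.825 to 0.999 with the replicate block.

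**Figure D5:**
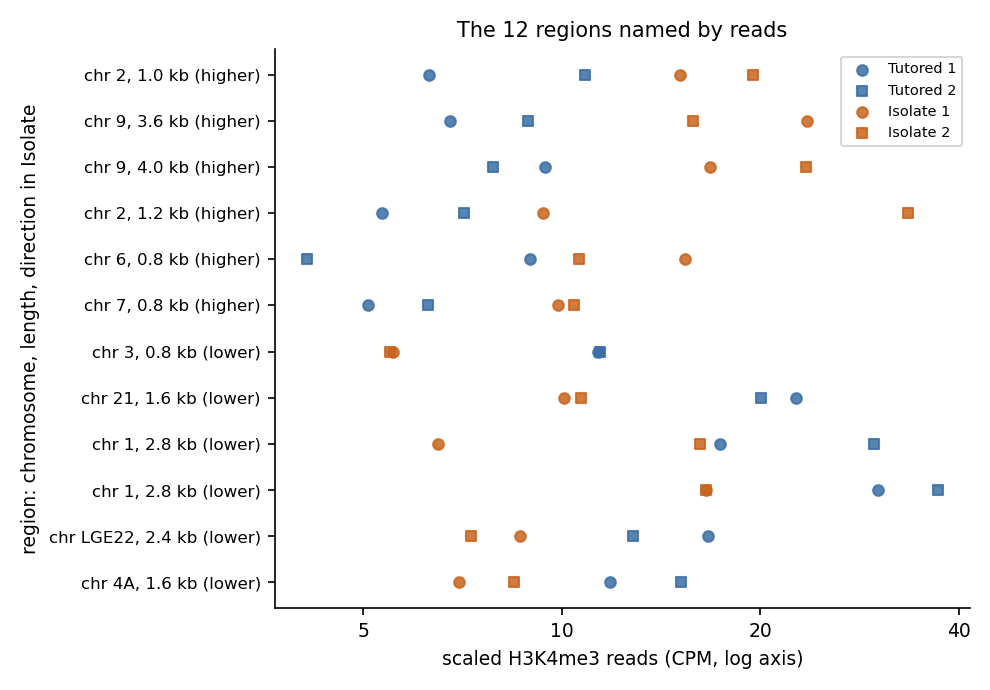
Scaled H3K4me3 reads (x axis, CPM, log axis) of the 12 regions named by reads (y axis, by chromosome and length), with a point for each of the 4 libraries (Tutored blue, Isolate orange, circles replicate 1, squares replicate 2). Orange points lie to the right of blue in the upper 6 regions and to the left in the lower 6, and no orange and blue points of a region cross.

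The longest H3K4me3 domains differed little in reads between the groups. In covered length those named here were equal or longer in Isolate, while the mean over all long regions turned with the replicate. The longest, on chromosome 23 at 3913601 to 3942600, was covered over 27400 bp in Tutored and 28800 bp in Isolate in replicate 1, and over 18200 and 21000 bp in replicate 2. It held 1904 and 1776 reads, then 2180 and 2573. The next, on chromosome 11 at 11506401 to 11535200, was covered over 26400 bp in both groups in replicate 1 and over 16000 and 16400 bp in replicate 2, with log2 read differences of -0.04 and 0.02. The third, on chromosome 10 at 20506801 to 20534000, was covered over 24200 and 26200 bp, then 8000 and 10400 bp, with log2 read differences of 0.02 and 0.03. All of these carried Pol II in every library. Across the 901 shared regions of 8 kb or more, mean covered length was 9449 bp in Tutored and 9240 bp in Isolate in replicate 1, and 7430 and 7644 bp in replicate 2. The SD of their log2 read difference was 0.16 and 0.14, against 0.41 and 0.34 in the 744 regions under 1 kb. These length classes were not matched for reads, and the SD also fell with reads (below). The part of length alone was not tested.

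Regions with many reads differed less between the groups. Regions with a mean of 800 reads or more (2998) had an SD of the log2 difference of 0.14 in replicate 1 and 0.09 in replicate 2. Those with 50 to 100 reads (1708) had 0.48 and 0.43. The 317 regions with under 50 reads had 0.45 and 0.49, so there the spread was larger in replicate 2 and, in replicate 1, below that of the next class. Median differences by class of reads stayed between -0.06 and 0.04 in both replicates.

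Regions with different companions differed in how far their length varied. In each class given here, more regions went opposite ways than were longer in both replicates or shorter in both, each taken alone. The opposite count pools both orders of sign, so it is not like the count of a single direction. Recurring regions with Pol II and no H3K27me3 were mostly longer in Isolate, a lean that was not tested. Of the 2524 shared regions with Pol II in all 4 day 67 libraries and no H3K27me3, the typical state of active promoters, 11 were at least 1.5-fold longer in Isolate in both replicates, 2 were shorter and 20 went opposite ways. Of the 846 with H3K27me3 in all 4 and no Pol II, the state of Polycomb-held genes, 13 were longer, 11 shorter and 22 opposite. Of the 2717 with neither mark in any library, 37 were longer, 39 shorter and 76 opposite. Median reads of these classes were 704, 128 and 148 (mean of the 4 libraries), and the classes with fewer reads had the larger spread in length (SD of the log2 ratio in replicate 1 of 0.35, 0.55 and 0.51).

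Differences by chromosome were small. Among the 28 chromosomes with at least 100 shared regions, the median log2 read difference ranged from -0.04 (chromosome 14) to 0.03 (chromosome 4) in replicate 1, and from -0.03 (chromosome 20) to 0.03 (chromosome 26) in replicate 2. The Z chromosome, of which males carry a pair, stood at -0.03 and 0.00 (707 regions). Reads of the Pol II islands that touch a shared region were also compared, counted whole even where an island runs past the region. Isolate minus Tutored differences in H3K4me3 reads did not track those of these Pol II islands. Pearson's r was 0.02 (7809 regions) in replicate 1 and 0.01 (3179) in replicate 2. For H3K27me3, counted the same way, the values were 0.01 (2414) and -0.01 (2793). Reads of these marks inside the regions alone were not compared.

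Exchanging the replicate 1 libraries reverses the sign of their differences, so small shifts of opposite direction necessarily became shifts of the same direction. That outcome does not tell which labels are right. By the titles, Isolate had 625 islands fewer than Tutored in replicate 1 and 844 more in replicate 2. The mean covered length of its shared regions of 8 kb or more fell by 209 bp against Tutored in replicate 1 and was 215 bp longer in replicate 2. With the exchange, the library then called Isolate had the more islands and the longer regions in both replicates. Isolate-only regions then numbered 131 and Tutored-only regions 35, regions longer in both replicates 118, shorter 103 and opposite 199. edgeR and limma called 0 regions each after the exchange, and with the replicate block as well. At an unadjusted p under 0.05 there were then 14 regions by edgeR and 87 by limma, and 656 and 1143 with the block.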

How the data were processed

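Chromatin of fixed, sonicated forebrain was pulled down with an H3K4me3 antibody and sequenced by Illumina, per the labels' protocols. BWA 0.6.1, SICER 1.1 and MACS stand in the submitters' processing notes, without role or order. Per the file names, islands were called with 200 bp windows, a gap of 200 bp and an FDR limit. The deposited values used are counts of reads per island, whole numbers, from lists called by library. Names of the replicate 2 lists also hold the tags nudup and markdup, which those of replicate 1 lack. What these steps did is not stated, so duplicate reads may have been treated differently in the replicates. The authors also deposited, for replicate 2 lists of other marks, p-values and fold ratios over input, which were not used. No source used here gives total depth, and intervals cover counting error only.

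Overlapping or touching islands of the 4 libraries were merged, and 1 bp of island made a region called. For reads of shared regions the test was edgeR 4.0.16 (TMM, robust quasi-likelihood fit, R 4.3.3), with DESeq2 1.42.0 beside it, and for log2 covered length it was limma 3.58.1 (trend, robust), with Benjamini-Hochberg adjustment at 0.05. log2 differences within a replicate use CPM with a prior count of 2. Simulated data had the replicate difference of these libraries and a common dispersion or SD for all regions, which the real regions need not share. On them edgeR and limma without the block called none of the planted changes, which were 2-fold or larger. DESeq2 called mainly the larger ones. Both blocked fits called most, with a few false calls. Replicate numbers were taken to pair the libraries, since each number has 1 pooled input, labelled as Tutored & Isolate. Libraries with the same number deviated together from the group means, at r = 0.79 for reads and 0.55 for length (14349 regions). The main fits have no block. Named regions are, among shared regions with a mean of at least 50 reads and the same sign in both replicates, the 6 highest and 6 lowest by the smaller difference, then 4 Isolate-only and 4 Tutored-only regions by the smaller count, 4 longer and 4 shorter of at least 2 kb, and the 3 longest. Members, rules and tests were chosen with earlier results of these data known.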

Additional observations from a re-analysis of the deposited data

How the results depend on the processing

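In every alternative run, edgeR, DESeq2 and limma called 0 shared regions for reads and for length, including each library left out (0 to 0), RLE factors, a covered-length offset, other merging, equal island numbers (17061 per list), the exchange of replicate 1 and the replicate block, which gave 0 for reads and 0 for length and was not run for other results. The edgeR and limma fits without the block did not call changes of the sizes simulated, so their 0 does not show stability. What the blocked fits can find in the real data is not known. The counts of regions called in a single group depended on the settings. With islands of at least 50 reads, 23 were Isolate-only and 21 Tutored-only. Where islands had to cover 50% of a region there were 132 and 102, with equal island numbers 79 and 98, with islands of at least 1000 bp 119 and 124, and with replicate 1 exchanged 131 and 35. The balance of 94 to 58 thus turned with equal island numbers and with longer islands. Leaving out a library, which loosens the definition, gave 300 to 1064 Isolate-only and 170 to 664 Tutored-only regions. Reads past 2-fold in both replicates gave 0 higher and 1 lower region, 28 and 30 at 1.5-fold, 3 and 2 after the exchange, 3 lower with islands within 1000 bp merged, and 2 higher per covered base pair, an alternative chosen after the data were seen. At 2-fold in length, 15 regions were longer and 8 shorter. The day 32 share was 56.5% of Isolate-only and 52.4% of Tutored-only regions with islands of at least 50 reads, and 49.4% and 49.0% with equal island numbers. The cause of these shifts was not tested. Of the 22 read differences of named regions, 22 stayed within the spread of the replicates under other scalings and 17 did not after the exchange, as choosing regions of the same sign in both replicates largely builds in. Presence rests on few reads in most regions of a single group, and reads outside islands are unknown.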
